A study of Mus musculus with 9 samples.

Results

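Cells mark proteins for destruction by attaching ubiquitin, which an activating enzyme passes to a conjugating enzyme (E2) and a ligase (E3) then directs to a chosen protein. Chains of ubiquitin are read by the proteasome, a barrel-shaped protease whose regulatory cap unfolds the protein and feeds it into the core, while deubiquitinases remove or trim the chains. In blood formation this system sets the turnover of cell cycle regulators, transcription factors and innate immune sensors, and proteasome inhibitors are known to lower platelet counts.

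The genes described here are those of the deposited table whose symbols belong to the proteasome (Psm), E2 (Ube2), ubiquitin-specific protease (Usp), F-box (Fbx), RING finger (Rnf) or tripartite motif (Trim) series, with Trim47 left out. They are 60 of the 2402 genes of the table, picked by a rule on names that was set with earlier results of these data known. The table holds only part of all genes, and whether its genes were selected by their values could not be checked. Shares of the table given below are therefore not shares of all genes. Of these, 10 are proteasome genes, 11 are E2 genes, 4 are Usp deubiquitinases, and 35 carry ligase names, as 8 Fbx, 14 Rnf and 13 Trim genes. The same rule allowed cullins (Cul) and the ligases named Ube3 and Ube4, of which the table had 0 and 0. All 60 symbols matched protein-coding genes of GENCODE M21. A gene of the Rnf or Trim series is called a ligase here by its name, and ligase activity was not measured.

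Messenger RNA was sequenced from sorted bone marrow cells of male mice in which Flt3-cre was crossed to the mTmG reporter, labelled C57BL/6. Cells of these animals are red (Tom) until the Flt3-driven Cre switches them and their descendants to green (GFP), so GFP records a history of Flt3 expression and not its present level. The labels list 9 samples in 4 groups: 3 of GFP+ megakaryocyte progenitors (MkP) from young mice of 3 months, and, from old mice, 2 of GFP+ MkP, 2 of Tom+ MkP and 2 of haematopoietic stem cells (HSC) that were Tom+. One label field puts the old mice at 18 to 20 months, another at 20. MkP were gated as lineage-negative, cKit+, Sca1-, CD150+ and CD41+, and HSC as lineage-negative, cKit+, Sca1+, CD150+ and Flk2-. The 9 rows of the table have no names, so no row has a group, and none of the study's comparisons between ages, reporter colours or cell types could be made. Rows are called libraries 1 to 9 below. This is a name only, and every value is a description of an unnamed library.

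The libraries held 1790670 to 4373460 recovered reads on the genes of the table. Libraries 3 and 4 stood apart in markers of both sorted cell types, on lists chosen with earlier results of these data known. The 6 measured megakaryocyte markers (Itga2b, Pf4, Gp1bb, Gp1ba, Gp9 and Treml1) summed to 3055 and 8759 normalized counts in libraries 3 and 4 and to 72763 to 135422 in the others, and the 7 stem cell markers (Procr, Ly6a, Hlf, Mecom, Ndn, Ltb and Mllt3) to 24847 and 15934 against 165 to 1393. None of these 13 markers was at 0 in any library. The 10 S phase markers summed to 9121 and 28399.6 in libraries 3 and 4 and to 63718 to 115436 elsewhere, and the 6 G2/M markers to 1807 and 3128 against 10773 to 33053. Of the 4 granulocyte and monocyte markers in the table, Prtn3 and Csf3r were highest and Csf1r and Cebpa lowest in libraries 3 and 4, with no read for Csf1r in library 3 and none for Cebpa in either, and the sum was 12916 and 12329 against 366 to 2142. The 3 T and NK cell markers in the table summed to 723 and 1179.5 against 2236 to 27179, with Nkg7 lowest and Klrb1c and Lck highest in libraries 3 and 4. Markers of the megakaryocyte, stem cell, cell division, granulocyte and monocyte, and T and NK lists therefore moved with most patterns below, and their part in them was not tested. In such bulk libraries fewer cells of a type and less RNA per cell cannot be told apart.

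Sequence is shown for 2 sets of members that ran together over the libraries. The first is the interferon-inducible Trim genes that lie side by side on chromosome 7, shown because 3 of them carry the letters of the interferon-stimulated response element, GAAA-NN-GAAA (N is any base), searched on both strands in the 250 bases before the RefSeq start site (GRCm38.p6). The capitals mark the match, which reads TTTC-NN-TTTC in the direction of the gene, and each stretch has 20 bases on either side or ends at the start site. The fourth line is Trim26, a Trim gene of chromosome 17 with 2 overlapping matches, of which 1 is in capitals.
Trim12c (chr7:104353350-104353398, minus strand): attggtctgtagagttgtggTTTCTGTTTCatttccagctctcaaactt
Trim30a (chr7:104465200-104465249, minus strand): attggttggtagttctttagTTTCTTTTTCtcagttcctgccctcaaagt
Trim30d (chr7:104507861-104507910, minus strand): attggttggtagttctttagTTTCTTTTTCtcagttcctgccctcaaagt
Trim26 (chr17:36836966-36837015, plus strand): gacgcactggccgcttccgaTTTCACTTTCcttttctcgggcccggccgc
The stretches of Trim30a and Trim30d were the same letter for letter, as near-identical copies of a gene can be. Promoter entries were found for 47 of the 60 members. The element was in 4 of these 47, in 3 of the 5 listed interferon-inducible members and in 3.46% of 27025 genes of the promoter table, or 4.22% of the 1778 deposited genes with an entry. A match is a description of letters and no evidence of binding.

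The second set is cell division and proteasome genes. Ube2c carried the cell cycle genes homology region, TTTGAA, known from promoters of mitotic genes, and Psme3 a CCAAT box. Both matches lie on the strand opposite to the gene and are in capitals.
Ube2c (chr2:164769880-164769925, plus strand): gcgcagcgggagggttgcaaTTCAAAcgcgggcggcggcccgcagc
Psme3 (chr11:101316179-101316212, plus strand): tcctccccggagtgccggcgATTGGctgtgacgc
TTTGAA was in 1 of the 3 cell division members, in 1 of the 7 proteasome genes with an entry (Psmd1) and in 18.3% of all genes of the promoter table. CCAAT was in 1 of the 7 proteasome genes with an entry and in 37.5% of all genes. It was also in 2 of the 3 cell division members (Ube2c and Fbxo5) and in all 5 listed interferon-inducible members. Neither motif was thus particular to the genes shown. The antioxidant response element, TGACNNNGC, the site of the factors encoded by Nfe2l1 and Nfe2l2, was in 0 of these 7 proteasome windows and in 11.5% of all genes.

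Proteasome genes and ligase genes stood on opposite sides of their usual levels in libraries 3 and 4. The level of each gene was centred as the log2 of its normalized count, with 1 added, minus its own median over the 9 libraries, and the median of these centred values was taken over each class. For the 10 proteasome genes it was -0.14, 0.11, -1.28, -0.69, 0.45, 0.39, 0.66, -0.45 and 0 in libraries 1 to 9. For the 34 ligase genes that passed the filter it was 0, -0.082, 1.21, 0.90, -0.10, -0.19, -0.48, 0.13 and -0.092. Proteasome genes were lowest in library 3, then 4, then 8, and highest in library 7. Ligase genes were highest in library 3, then 4, then 8, and lowest in library 7. The difference, proteasome minus ligase, was -0.14, 0.19, -2.49, -1.59, 0.56, 0.59, 1.14, -0.58 and 0.092 in libraries 1 to 9. It thus ran from -2.49 to 1.14 on the log2 scale, and its sign was the same under both other scalings tried.

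The classes between these were less uniform. The 11 E2 genes had centred medians of -0.001, 0, 0.19, 0.18, 0, 0.093, 0.36, -0.17 and 0 in libraries 1 to 9, where genes on opposite sides of 0 were pooled. The 4 Usp genes had 0.08, 0, 0.92, 0.47, -0.37, 0.092, -0.32, -0.063 and -0.052. The median of all 2341 table genes that passed the filter was itself 0.72 in library 3 and 0.44 in library 4, and 0 in the other libraries. In library 3 it became 1.48 with reads scaled to the table total and 0.11 with median-of-ratios scaling. Relative to it, in library 3, the proteasome genes stood at -2.002, the E2 genes at -0.53, the Usp genes at 0.20 and the ligase genes at 0.49. These relative values were -2.09 and -2.01 for the proteasome, and 0.61 and 0.51 for the ligases, under the table total and median-of-ratios scalings. Unadjusted, the proteasome median in libraries 3 and 4 was -0.61 and -0.13 with the table total and -1.90 and -1.03 with median-of-ratios scaling, and the ligase median stayed above 0 in both under each, at 0.57 or more.

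**Figure D1:**
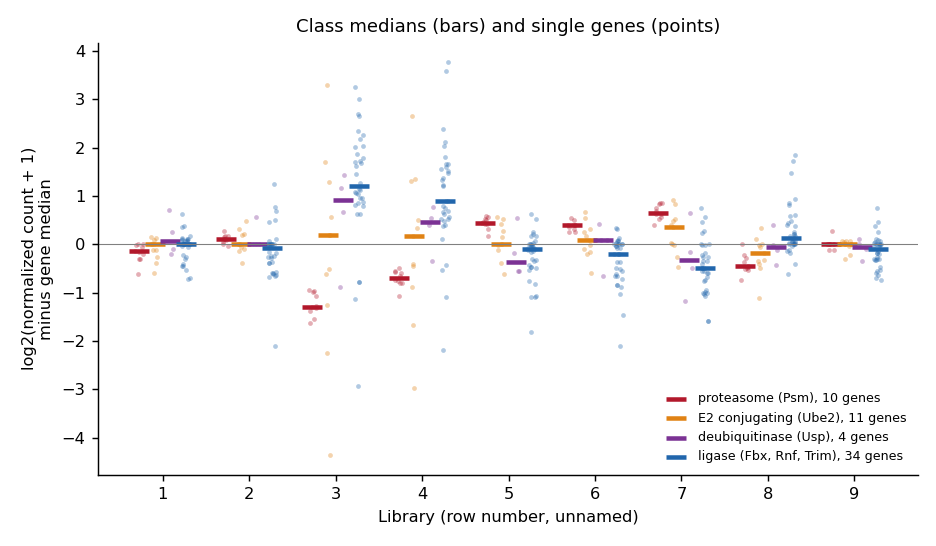
Centred log2 level (vertical axis, log2 of the normalized count plus 1 minus the gene's median) in each unnamed library (horizontal axis), with a point for each gene and a bar for the class median. In library 3 the proteasome bar lies at -1.28 and the ligase bar at 1.21, and in library 7 they lie at 0.66 and -0.48.

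Counted gene by gene, the 10 proteasome genes all had their lowest value in library 3 and their second lowest in library 4, as did 34.8% of all table genes tested. Of the 34 ligase genes, 29 had their 2 highest values in libraries 3 and 4 (85.3%), against 51% of table genes. Another 4 had their 2 lowest there (11.8%), against 41%. Among table genes with a median under 1000 these shares were 67.6% and 21.8%. Of the 11 E2 genes, 4 had their 2 highest and 5 their 2 lowest values in these libraries, and of the 4 Usp genes 3 and 1. Scaling changed the counts. Under the table total the proteasome genes with both lowest values in libraries 3 and 4 were 1 of 10 (23.9% of the table), although 9 of 10 stayed lowest in library 3 (28.5% of the table). Under median-of-ratios scaling the ligase genes with both highest values there were 18 of 34 (38.3% of the table), and under the table total 29 (55.9%).

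The direction also went with the level of a gene. Of the 17 members with a median of at least 1000 normalized counts, 16 had their 2 lowest values in libraries 3 and 4, close to the 91.9% of the 641 table genes at that level. Of the 42 members with a lower median, 35 had their 2 highest values there, against 67.6% of 1700 table genes. The proteasome genes, 9 of which had a median of at least 1000, therefore did what most abundant genes of the table did, and the low ligase genes what most low genes did. The members that ran against their level were Ube2b, high in libraries 3 and 4 at a median of 1094, and Psmg2, Ube2s, Fbxo5 and Trim28, low in these libraries at medians under 1000 (807, 993, 864 and 747). Only the cut at 1000 was tried, and these medians lie near it. The genes were picked out after their values were seen.

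**Figure D2:**
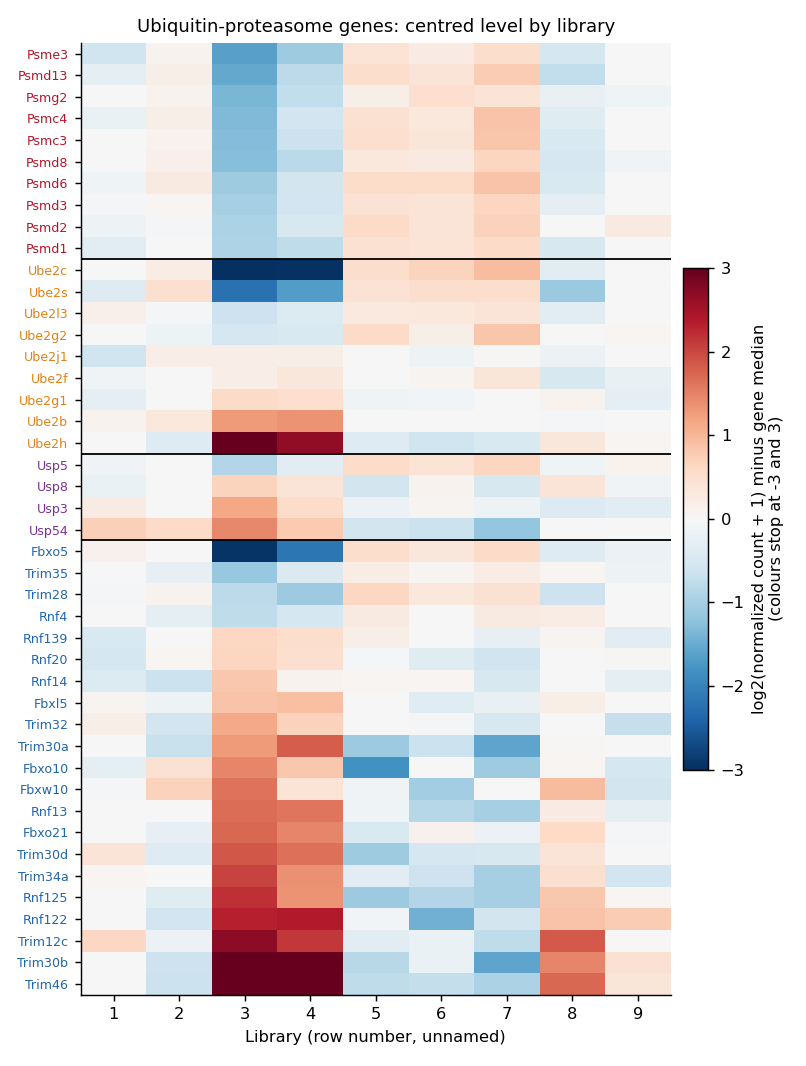
Centred log2 level (colour, log2 of the normalized count plus 1 minus the gene's median, clipped at -3 and 3) of 44 members, those chosen by level, range or list, in each unnamed library. Genes are sorted within each class by library 3, and label colours and black lines mark the proteasome, E2, Usp and ligase classes from top to bottom, with all 10 proteasome genes blue in libraries 3 and 4.

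How far members varied was described by dividing the highest value by the lowest. A gene was used if 2 or more libraries reached 10 normalized counts, which 59 of 60 members did, and 52 reached 10 in all 9. The filter lets in genes that are high in only a pair of libraries, so counts over the genes that passed support nothing by themselves. The median range, with 1 added, was 3.77-fold for the proteasome, 2.64-fold for E2, 2.92-fold for Usp and 4.74-fold for ligase genes, beside 6.16-fold over the table. A range of at least 4-fold was reached by 4 of 10 proteasome, 4 of 11 E2, 1 of 4 Usp and 18 of 34 ligase genes, together 27 of 59 (45.8%), below the 66.4% of the table. Without libraries 3 and 4 it was 4 of 57, against 20.8% of the table, and the median ranges were 2.20-fold for proteasome, 1.80-fold for E2, 1.81-fold for Usp and 2.14-fold for ligase genes. Reads of all 59 members differed between libraries beyond counting error (chi-square test of recovered reads, Benjamini-Hochberg adjustment over 2341 genes at 0.05), as did 98.7% of the table, so passing that test says little about these genes.

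**Figure D3:**
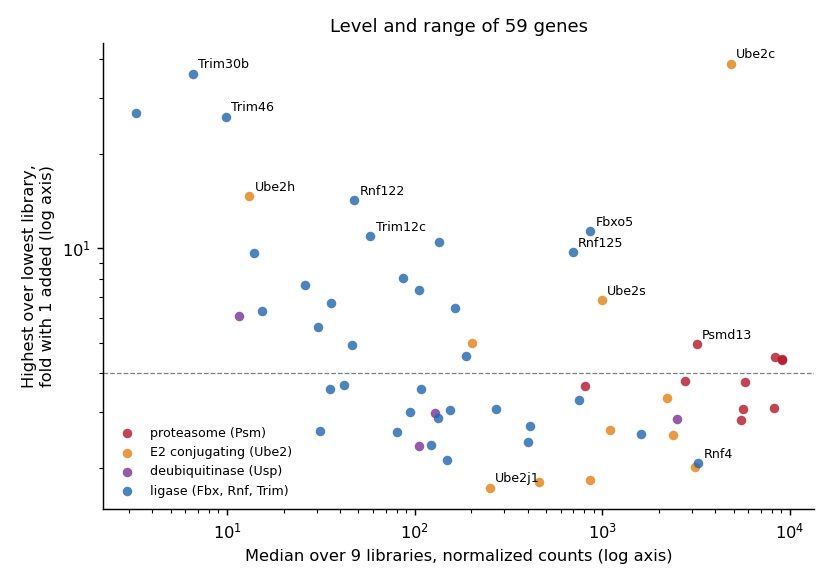
Range of each of 59 members (vertical log axis, highest over lowest library in fold with 1 added) against its median over 9 libraries (horizontal log axis, normalized counts), coloured by class, with a dashed line at 4-fold. Ube2c combines a high level with a wide range, while Trim30b and Trim46 reach theirs at a low level.

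E2 enzymes carry the activated ubiquitin. The widest range of the class was in Ube2c, and with 1 added it was also the widest of all 59 members, at 38.7-fold. Ube2c encodes the E2 that starts ubiquitin chains for the anaphase-promoting complex (APC/C) in mitosis, and its promoter stretch is shown above. Ube2c had 4829.7, 5627, 235, 619, 6913, 7711, 9113, 3791 and 4833 normalized counts in libraries 1 to 9. Libraries 3 and 4 were far below all others, which did not fall under 3791. The highest library exceeded the lowest 38.8-fold (95% exact counting interval 33.7 to 44.9), 14.7-fold without library 3 and 2.40-fold without libraries 3 and 4. Ube2s, the E2 that extends the same chains, had 759.6, 1386, 210.0, 310.1, 1339, 1441, 1425, 457 and 993 normalized counts in libraries 1 to 9. Its low libraries were again 3 and 4, with library 8 next, and the ratio was 6.86-fold (5.85 to 8.09). Reads of Ube2c exceeded those of Ube2s 1.12-fold in library 3 (interval 0.909 to 1.38) and 8.29-fold in library 8 (7.51 to 9.18), so these partners did not keep a fixed ratio. They too were paired after their values were seen. Fbxo5, an F-box protein known as the APC/C inhibitor Emi1, had 940.0, 864, 112, 189.9, 1243, 1088, 1280.3, 656 and 762 normalized counts in libraries 1 to 9. It was low in libraries 3 and 4 as well, with a ratio of 11.4-fold (9.23 to 14.3), 6.74-fold without library 3 and 1.95-fold without both. All 3 listed cell division members thus had their 2 lowest values in libraries 3 and 4, under every scaling tried, beside the S phase and G2/M sums given above. Over the table this share was 41%, 23.9% with the table total and 41.9% with median-of-ratios scaling, and it was 91.9% of genes at the level of Ube2c. Ube2c lies on chromosome 2 (164769898 to 164778822), Ube2s on chromosome 7 (4794546 to 4812590) and Fbxo5 on chromosome 10 (5799160 to 5805600) in mm10.

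**Figure D4:**
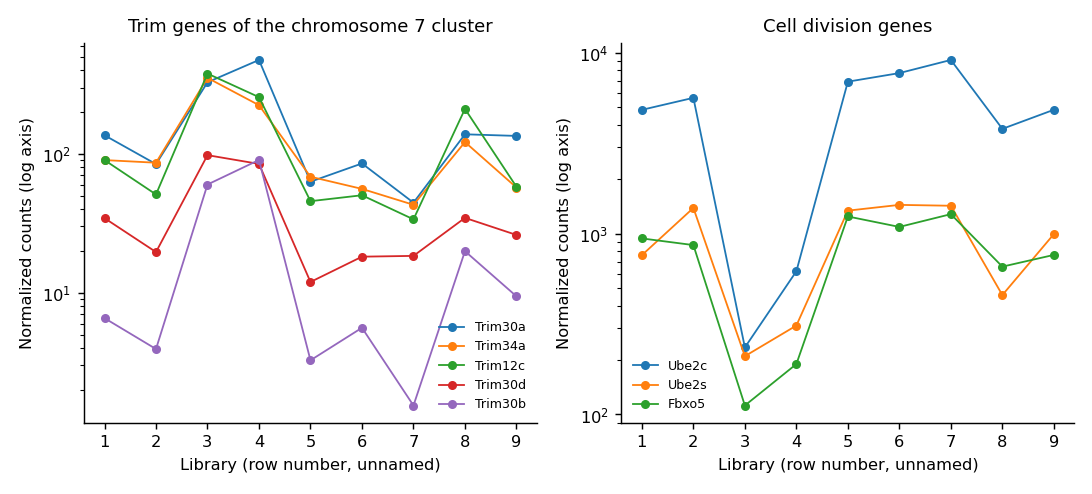
Normalized counts (vertical log axes) by unnamed library (horizontal axes) of 5 Trim genes of the chromosome 7 cluster (left) and 3 cell division genes (right), with lines that only join the points of a gene. The Trim genes peak in libraries 3 and 4 and the cell division genes have their lowest values there.

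General E2 enzymes with high levels also had low values in library 3, by less. Ube2l3, which serves HECT and RING-between-RING ligases, had 3417, 2973, 2018, 2344, 3765, 3885, 4062, 2484 and 3097 normalized counts in libraries 1 to 9. Ube2k, which builds the chains read by the proteasome, lay between 921 in library 3 and 3067 in library 7. Their ratios were 2.01-fold (1.89 to 2.14) and 3.33-fold (3.06 to 3.62). Under the table total scaling neither Ube2l3 nor Ube2g2 had its 2 lowest values in libraries 3 and 4.

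The related pair Ube2g1 and Ube2g2, of which the second acts in the disposal of misfolded proteins of the endoplasmic reticulum, ran against each other. Ube2g2 had 2390.2, 2167, 1683, 1745, 3534, 2704, 4268, 2359 and 2505 normalized counts in libraries 1 to 9. Ube2g1 had 714, 856, 1272, 1208, 788, 806, 866, 924 and 695 normalized counts in libraries 1 to 9. Library 3 was the lowest for Ube2g2 and the highest for Ube2g1. The ratio of their reads, which no scaling of a library can change, was lowest in library 3, 1.32 (interval 1.22 to 1.43), followed by library 4, 1.44 (1.33 to 1.56), and highest in library 7, 4.93 (4.50 to 5.41). In the remaining libraries it lay between 2.53 and 4.49. The pair was chosen after its values were seen.

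E2 genes that were high in libraries 3 and 4 were Ube2b, Ube2r2, Ube2h and Ube2g1, of which Ube2g1 did not keep both highest values there under median-of-ratios scaling. Ube2b, a RAD6 enzyme of DNA damage tolerance and histone ubiquitination, had 1171, 1366, 2669, 2792, 1077, 1081, 1089.9, 1057 and 1094 normalized counts in libraries 1 to 9. Libraries 3 and 4 were above all others, which lay within 1.29-fold of each other. The highest exceeded the lowest 2.64-fold (2.45 to 2.85), and among table genes with a median of at least 1000 only 6.71% had both highest values in these libraries. Ube2h, an E2 known to accumulate in maturing erythroid cells, had 13.1, 9.81, 137, 88.1, 9.78, 8.39, 9.21, 16.8 and 13.8 normalized counts in libraries 1 to 9. It was high in libraries 3 and 4 and at far lower levels elsewhere, a ratio of 16.3-fold (7.27 to 45.3), or 10.5-fold without library 3. The erythroid genes Ermap and Aqp1 were lowest in those same libraries. Rhd was lowest in library 8, at 3.15, against 4.72 and 9.15 in libraries 3 and 4. The 3 measured erythroid genes summed to 287 and 309 in libraries 3 and 4 against 5752 to 8528 elsewhere. Most of each sum was Aqp1, so library 8 had the highest sum although Ermap was only 10.5 there. The part of these genes was not tested. Ube2r2, a partner of cullin ligases, lay between 131 in library 5 and 658 in library 3. The narrowest E2 genes were Ube2j1, an E2 of the endoplasmic reticulum, and Ube2f, which conjugates the ubiquitin relative NEDD8. Ube2j1 had 166, 287, 287, 285, 251, 225, 256, 222 and 247 normalized counts in libraries 1 to 9. Ube2f had 425, 457, 523, 581, 457, 488, 586, 326 and 394 normalized counts in libraries 1 to 9. Neither had both its highest or both its lowest values in libraries 3 and 4.

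Ligase genes choose the substrate. Among the Rnf genes, 12 of the 13 that passed the filter had their 2 highest values in libraries 3 and 4, beside 67.6% of table genes with a median under 1000, but under median-of-ratios scaling only 4 of 13 did (38.3% of the table). Rnf125, a ligase that targets the RNA sensor RIG-I, had 694, 536, 3166, 1759.6, 325, 378, 345, 1222 and 724 normalized counts in libraries 1 to 9. Library 3 was the highest, with libraries 4 and 8 next and libraries 5 to 7 lowest. The ratio was 9.74-fold (8.64 to 11.02), 5.42-fold without library 3 and 3.76-fold without libraries 3 and 4, so it was spread among the other libraries too. Rnf13, an endosomal and lysosomal membrane ligase, had 164, 165, 529.6, 499, 149.9, 90.9, 81.4, 196 and 133 normalized counts in libraries 1 to 9. Its values in libraries 3 and 4 did not overlap with those of the rest, which stayed at or under 196. Rnf122 had 47.6, 31.4, 245, 252, 44.5, 16.8, 32.2, 87.02 and 81.1 normalized counts in libraries 1 to 9. The ratio of 15-fold rests on 12 reads in library 6 (interval 8.41 to 29.5) and was 8.02-fold without it. Narrow ranges were seen in Rnf139, a ligase of the endoplasmic reticulum membrane, in Rnf20, which ubiquitinates histone H2B, and in Rnf14. Rnf139 had 108, 147, 230.0, 215, 166, 148, 124, 156 and 119 normalized counts in libraries 1 to 9. Rnf20 had 83.7, 128, 189.9, 172, 119.5, 93.7, 79.8, 122 and 125 normalized counts in libraries 1 to 9. Rnf14 had 312, 265, 719.5, 447, 434, 434, 295, 413 and 337 normalized counts in libraries 1 to 9. Library 3 was the highest in Rnf139, Rnf20 and Rnf14, and Rnf14 ranged 2.72-fold with it and 1.69-fold without it.

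Rnf4 was the only Rnf gene with both its lowest values in libraries 3 and 4. It encodes the ligase that recognises SUMO chains, on proteins at sites of DNA damage among others. Rnf4 had 3232, 2663, 1896, 2225, 3877, 3279.8, 3922, 3768 and 3214 normalized counts in libraries 1 to 9. The values outside libraries 3 and 4 lay between 2663 and 3922, and the ratio over all 9 was 2.07-fold (1.94 to 2.20). Under the table total scaling its 2 lowest values were no longer in libraries 3 and 4. Ube2b, the other member listed for the DNA damage response, had both its highest values there. The SUMO genes of the wider list ran like Rnf4, as given below, and so did 91.9% of table genes with a median of at least 1000. Rnf144b was the member that did not pass the filter, with at most 14.2 normalized counts, in library 3, and 1 read in library 7.

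F-box proteins are the substrate arms of SCF ligases. Beside Fbxo5, the most abundant were Fbxl5, the iron sensor that targets iron regulatory proteins, and Fbxo21. Fbxl5 had 427, 361, 728, 752, 402, 310.5, 344, 454 and 402 normalized counts in libraries 1 to 9. Libraries 3 and 4 were the highest and the remaining values lay within 1.46-fold. Fbxo21 had 189, 159, 626, 524, 137, 207, 167, 288 and 183 normalized counts in libraries 1 to 9. Its ratio was 4.57-fold (3.76 to 5.60), or 2.11-fold without libraries 3 and 4. Fbxo10 and Fbxw10 were low genes, with medians of 13.99 and 15.3. Fbxo10 had 11.5, 19.6, 40.1, 25.2, 3.26, 13.99, 6.14, 14.7 and 9.42 normalized counts in libraries 1 to 9. It had 3 reads in library 5, and its ratio of 12.3-fold had an interval from 3.87 to 62.6 (falling to 6.53 when library 5 and to 7.72 when library 3 was left out). Fbxw10 had 14.8, 25.5, 49.5, 20.6, 14.1, 6.99, 15.3, 30.4 and 10.1 normalized counts in libraries 1 to 9. It ranged 7.09-fold (2.81 to 22.9), 4.35-fold without library 3, with library 8 as its second highest. Fbxo32, known as atrogin-1 from muscle wasting, reached 119 in library 3 and at most 51.5 elsewhere.

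The widest ranges among ligases were those of Trim30b, Trim62 and Trim46, all low genes. Of the 13 Trim genes, 11 had their 2 highest values in libraries 3 and 4, beside 67.6% of table genes with a median under 1000. Under median-of-ratios scaling 9 did (38.3% of the table). A range of 4-fold or more was reached by 9 (69.2%, close to the 66.4% of the table). The cluster on chromosome 7 of mm10 holds, in order, Trim34a (104244457 to 104262234), Trim12c (104338754 to 104353362), Trim30b (104355382 to 104369884), Trim30a (104409025 to 104465193) and Trim30d (104470014 to 104507849). These are interferon-inducible genes of a family known for restricting viruses and tuning innate signalling. Since they are near-identical in part, reads may have been split between them, and values of single members are uncertain.

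Trim30a had 136, 84.4, 328, 475, 63.02, 85.3, 44.5, 138 and 135 normalized counts in libraries 1 to 9. Trim12c had 90.2, 51.03, 379, 256, 45.6, 50.4, 33.8, 211 and 57.9 normalized counts in libraries 1 to 9. Trim34a had 90.2, 86.4, 353, 224, 68.5, 55.95, 42.98, 122 and 57.2 normalized counts in libraries 1 to 9. In all 3, libraries 3 and 4 were above every other library, and library 7 was the lowest. Trim30d had 34.5, 19.6, 97.9, 84.7, 11.9, 18.2, 18.4, 34.6 and 26.1 normalized counts in libraries 1 to 9, with library 3 the highest and library 5 the lowest, a ratio of 8.19-fold that was 5.39-fold without library 5. Trim30b had 6.56, 3.93, 60.2, 90.4, 3.26, 5.59, 1.54, 19.9 and 9.42 normalized counts in libraries 1 to 9. It had 1 read in library 7 and reached 90.4 in library 4, or 58.7 times as much (interval 10.3 to 2355). Leaving out library 7 made this 27.7 times, and leaving out library 4 39.1 times. The ratios of the better measured members were 11.2-fold for Trim12c (7.28 to 18.1), 10.7-fold for Trim30a (7.32 to 16.1) and 8.21-fold for Trim34a (5.56 to 12.6, 5.22-fold without library 3). Library 8 came next in each of these 3 genes, and Trim12c stood at 211 there, against 90.2 or less in the remaining 6 libraries. Without libraries 3 and 4 Trim12c still ranged 6.24-fold. All 5 listed interferon-inducible members had both highest values in libraries 3 and 4, against 67.6% of table genes with a median under 1000, and 4 of 5, all but Trim12c, did under median-of-ratios scaling. Trim26, whose promoter stretch is shown above, had 63.98, 106, 439, 316, 101, 58.7, 79.8, 108 and 110.1 normalized counts in libraries 1 to 9, with the same 2 libraries on top.

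Trim46, known from the axon, was a low gene with 9.84, 5.89, 103, 146, 5.43, 5.59, 4.61, 34.6 and 13.04 normalized counts in libraries 1 to 9. Its interval was wide, 10.6 to 156 around 31.8-fold, since library 7 had 3 reads. Trim62 had no read in libraries 2 and 6 and reached 25.9 in library 3, 8.24 times the lowest value once values under 3 reads are raised to 3 reads. The abundant Trim genes ran the other way. Trim28, the KAP1 corepressor recruited by KRAB zinc finger proteins to silence transposons, had 735, 803, 435, 351, 1157, 929, 1025, 486 and 747 normalized counts in libraries 1 to 9. Trim35 had 1598, 1354, 731, 1191, 1857, 1694, 1874, 1656 and 1448 normalized counts in libraries 1 to 9. Both were lowest in libraries 3 and 4, with ratios of 3.29-fold (2.90 to 3.75) and 2.56-fold (2.32 to 2.83, 1.57-fold without library 3), but under the table total scaling neither kept both its lowest values there. Trim32 had 121, 72.6, 239, 174, 109.7, 105, 76.8, 108 and 66.6 normalized counts in libraries 1 to 9, with library 3 the highest. A further 9 ligase genes (Rnf111, Rnf130, Rnf145, Rnf185, Rnf214, Rnf216, Fbxl12, Trim13 and Trim68) all had both highest values in libraries 3 and 4, beside 67.6% of table genes with a median under 1000, but under median-of-ratios scaling only Rnf185, Fbxl12 and Trim13 did. Their medians lay between 30.7 (Trim13) and 269.9 (Rnf145), and their highest libraries exceeded the lowest by 2.62-fold (Rnf185) to 5.80-fold (Trim13). The ratio of Trim28 to Trim26 reads, free of scaling, was 0.992 in library 3 (0.857 to 1.15), 1.11 in library 4 (0.942 to 1.31) and 4.50 to 15.8 in the others, a pair chosen after its values were seen.

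Deubiquitinases take ubiquitin off again, and the 4 in the table split along with their level. Usp5 had its 2 lowest values in libraries 3 and 4, as did 91.9% of table genes with a median of at least 1000. Usp3, Usp8 and Usp54 had their 2 highest there, as did 67.6% of table genes with a median under 1000. Usp5, which takes apart unanchored chains and so refills the ubiquitin pool, had 2351, 2512, 1371, 1972, 3658, 3355, 3931, 2313 and 2724 normalized counts in libraries 1 to 9. Like the proteasome genes it was lowest in library 3, then 4, and highest in library 7 (under the table total scaling its 2 lowest values were not in libraries 3 and 4), with a ratio of 2.87-fold (2.68 to 3.08). Usp3, which acts on histone H2A, had 153, 128, 287, 188, 112, 136, 115, 95.4 and 101 normalized counts in libraries 1 to 9. Usp8, which acts on receptors at endosomes, had 91.9, 106, 169.8, 139.6, 71.7, 113, 75.2, 139 and 98.5 normalized counts in libraries 1 to 9. Both were highest in libraries 3 and 4, with ratios of 3.00-fold (2.35 to 3.87, 1.97-fold without library 3) and 2.37-fold (1.76 to 3.22), but under median-of-ratios scaling none of the 4 had its 2 highest values there. For Usp8, libraries 4 and 8 were nearly equal, at 139.58 (122 reads) and 139.44 (133 reads). Usp54 had 19.7, 17.7, 33.03, 20.6, 7.61, 6.99, 4.61, 11.5 and 11.6 normalized counts in libraries 1 to 9. It had 3 reads in its lowest library, so that its ratio of 7.16-fold had an interval from 2.22 to 36.9 (falling to 4.47 when library 3 and to 4.73 when library 7 was left out). Its second highest value, 20.6 in library 4 (18 reads), was close to the 19.7 of library 1 (12 reads). The ratio of Usp5 to Usp3 reads was 4.78 in library 3 (4.16 to 5.51) and 34.1 in library 7 (27.1 to 43.6), the lowest and the highest of the 9. This pair was chosen after its values were seen.

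The proteasome genes of the table came from the regulatory cap, with 2 ATPases of its base (Psmc3 and Psmc4) and 6 further subunits (Psmd1, Psmd2, Psmd3, Psmd6, Psmd8 and Psmd13), from the nuclear activator PA28 gamma (Psme3), and from an assembly chaperone (Psmg2). Of the core particle, 0 alpha (Psma) and 0 beta (Psmb) genes were among the 2402, so neither the proteolytic subunits nor their interferon-inducible replacements were analysed here. Psmc3 and Psmc4 encode ATPases that unfold the substrate. Psmc3 had 8977, 9753, 3667, 5766, 12809.6, 11585, 16119, 6607 and 9017 normalized counts in libraries 1 to 9. Psmc4 had 7208, 9354, 3320.4, 5526, 11334, 10242, 14951, 6415 and 8266 normalized counts in libraries 1 to 9. Both were lowest in library 3, where library 7 exceeded them 4.40-fold (4.22 to 4.58) and 4.50-fold (4.32 to 4.70), or 2.80-fold and 2.71-fold without library 3. The ratio of their reads, a pair chosen after its values were seen, stayed between 1.03 (library 8, interval 0.994 to 1.07) and 1.25 (library 1, 1.20 to 1.30).

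Psmd1 and Psmd2 encode the large scaffold subunits of the base that hold ubiquitin receptors. Psmd1 had 4409.7, 5468, 2857, 3234, 7471, 7249, 8116, 3909 and 5489 normalized counts in libraries 1 to 9. Psmd2 had 7417, 7996, 4238, 5886, 12298, 10799, 13174, 8218 and 9944 normalized counts in libraries 1 to 9. The highest library exceeded the lowest 2.84-fold (2.71 to 2.98) and 3.11-fold (2.99 to 3.23), with libraries 5, 6 and 7 on top. Of the lid, which carries the deubiquitinating subunit of the cap, Psmd3 had 5392, 5804, 2826, 3766, 7525, 7416, 8704, 4586 and 5609.6 normalized counts in libraries 1 to 9. Psmd6 had 2518, 3331, 1318, 1876, 4051, 4023, 4988, 1997 and 2749 normalized counts in libraries 1 to 9. Psmd8 had 5759.9, 6390.5, 2385, 3309.8, 7188, 6923, 8956, 4067 and 5344 normalized counts in libraries 1 to 9. Each was again lowest in library 3 and highest in library 7. Library 3 was the lowest for 36.6% of table genes and library 7 the highest for 24.8%. Psmd13, also of the lid, had 2581, 3578, 1089.9, 1839.7, 4549, 4169, 5393, 1912 and 3177 normalized counts in libraries 1 to 9. It had the widest range of the 10, 4.95-fold (4.60 to 5.33), which was 2.93-fold without library 3 and 2.82-fold without libraries 3 and 4. The ratios of Psmd3, Psmd6 and Psmd8 were 3.08-fold, 3.79-fold and 3.76-fold.

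Psme3, whose product caps the core in the nucleus and opens it for proteins without ubiquitin, had 5958, 9749, 2952, 4302, 12127, 10764, 13092, 6262 and 9072 normalized counts in libraries 1 to 9. It was low in libraries 3 and 4 and was next lowest in library 1, whereas library 8 came next for most other proteasome genes. Psmg2, which helps assemble the ring of alpha subunits, had 807, 866, 311, 486, 914, 1139.9, 1072, 693 and 742 normalized counts in libraries 1 to 9. Its ratio was 3.66-fold (3.18 to 4.22) over all libraries, 2.34-fold without library 3 and 1.64-fold without libraries 3 and 4. In all 10 genes the 3 highest libraries were 5, 6 and 7, as in 21.1% of all table genes. Among the 7 libraries other than 3 and 4, library 8 was the lowest in 8 of 10, against 26.9% of the table. Neither share was computed for table genes of similar level, and both counts are on the deposited scaling. Under the table total the proteasome class median was 0.15, 0.059 and 0.15 in libraries 5, 6 and 7, and 0.067 in library 9. It was -0.20 in library 8 and -0.18 in library 1.

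**Figure D5:**
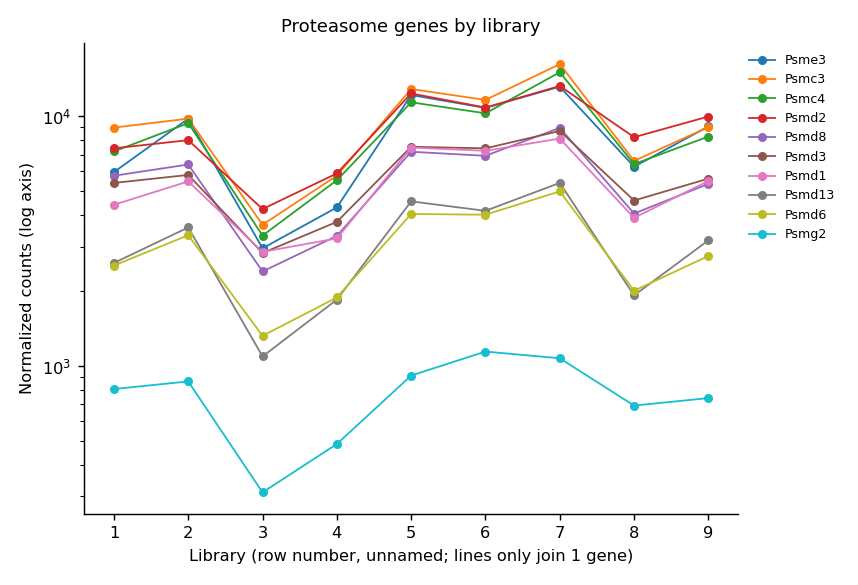
Normalized counts (vertical log axis) of the 10 proteasome genes in each unnamed library (horizontal axis), with lines that only join the points of a gene. All 10 genes have their lowest point in library 3 and their 3 highest in libraries 5, 6 and 7.

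The proportions between the proteasome genes varied less than their levels. After the median of the other 9 proteasome genes was subtracted from each gene on the log2 scale, the range left over the 9 libraries was between 1.18-fold (Psmc3) and 1.53-fold (Psmd2), where the ranges before, with 1 added, were 2.84-fold (Psmd1) to 4.94-fold (Psmd13). On the log2 scale Psmd2 deviated most in library 8, at 0.46, and Psme3 in library 1, at -0.48 relative to the others. A change of library scaling drops out of these residual ranges except through the pseudocount and the gene medians used for centring. They were computed on the deposited scaling only, and for no other genes of the table. Whether such small residual ranges are particular to proteasome genes was therefore not tested. Per kilobase of annotated exon, the median levels of the 10 genes lay between 619.9 (Psmg2) and 5740.4 (Psmc4) normalized counts per kb, with a class median of 2613, against 449.7 for E2, 24.1 for Usp and 28.2 for ligase genes. The assembly chaperone was the lowest of the 10 in level per kb, and the next, Psmd13, had 1597.

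Further genes of the pathway, taken from a list, are given on the deposited scaling only. Of 111 listed genes, 19 were in the table, 9 with their 2 lowest (41% of the table) and 6 with their 2 highest values in libraries 3 and 4 (51% of the table), and all 19 differed beyond counting error (98.7% of the table did). The low ones included both subunits of the SUMO-activating enzyme, Sae1 (4010.5 to 18237) and Uba2 (1679.7 to 7102), the modifier Sumo3 (11505 to 31934), the APC/C subunit Anapc5 (10272 to 29676) and the APC/C activators Cdc20 (169 to 6996) and Fzr1 (1916 to 7554). All these low genes had medians of at least 1000, a level at which 91.9% of table genes had both lowest values in libraries 3 and 4. The ratio of highest to lowest was 41.5-fold for Cdc20 and 3.94-fold for Fzr1. Uba7, which activates the interferon-induced modifier ISG15, had 1303, 964, 7412, 5587, 599.8, 573, 694, 4573 and 3339 normalized counts in libraries 1 to 9. It was highest in libraries 3 and 4, and libraries 8 and 9 stood above the other 5 as well, a ratio of 12.9-fold. Nfe2l1, the factor known to raise proteasome genes when proteasome activity falls, had 159, 147, 291, 230.0, 117, 148, 109, 180.3 and 148 normalized counts in libraries 1 to 9. Its highest values were in libraries 3 and 4, as were those of Nfe2l2 (2386 and 1833). Among table genes with a median under 1000, such as Nfe2l1, 67.6% had both highest values there. At a median of at least 1000, such as that of Nfe2l2, the share was 6.71%. The 10 proteasome genes were lowest in these libraries, and a link between them and either factor was not tested.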

How the data were processed

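RNA-seq of 9 sorted mouse samples was used. The deposited values are normalized counts, a signal scaled per library by the authors; the submitters' processing notes name Bowtie2, STAR, DESeq and mm10, and counting tool, strand setting and versions were not given there. All values were whole multiples of a step per library within 0.1 read, from which reads were recovered. Rows carry no sample names, so the planned group comparisons were not run.

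A gene was kept if 2 or more libraries reached 10 normalized counts. Ranges are highest over lowest log2 values after adding 1. Recovered reads were compared between libraries by a chi-square test with Benjamini-Hochberg adjustment over 2341 genes (scipy 1.17.1, Python 3.11.15). Ratios have exact conditional binomial 95% intervals, which cover counting error only. The procedure was tested on simulated data. Ratios of 2 genes in a library use recovered reads, and all such pairs were chosen after values were seen. Values in every library are given for all proteasome genes and, of each other family, for the 3 highest medians, the 3 widest ranges and the 3 narrowest at a median of at least 100, besides the listed members; Trim26 was added for its sequence. The members and lists were chosen with earlier results of these data known. Gene positions and exon lengths came from GENCODE M21. One item is not reported here. Alternatives were pseudocounts, filters, scalings and left-out libraries.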

Additional observations from a re-analysis of the deposited data

How the results depend on the processing

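Scaling to the table total moved the median range to 1.76-fold for proteasome, 5.38-fold for Usp and 8.38-fold for ligase genes, and the spread of the class level over libraries (highest minus lowest, log2) from 1.94 to 0.76 for proteasome, from 1.29 to 2.36 for Usp and from 1.69 to 2.95 for ligase genes. Median-of-ratios scaling gave a proteasome median range of 6.15-fold and spreads of 2.67 for proteasome, 0.66 for Usp and 0.94 for ligase genes. With a library left out in turn, 17 to 27 members ranged 4-fold or more, the 17 without library 3. Without libraries 3 and 4, an alternative chosen after seeing the data, 4 members did, and median ranges were 2.20-fold for proteasome, 1.81-fold for Usp and 2.14-fold for ligase genes. The cause of these shifts was not tested. Pseudocounts of 0.5 and 5, both other filters and a floor of 3 reads left every class value and count within 1.5 times, and proteasome minus ligase kept its sign in all 9 libraries under each setting run. Ranges of single members moved by over 1.5 times in 56 of 59 under the table total (19 narrower, 37 wider), 34 under median-of-ratios scaling, 16 of 58 without library 3 and 43 of 57 without libraries 3 and 4. No paired analysis was possible because the rows carry no sample or replicate names, and comparisons between groups, with their block and left-out replicates, were not run for the same reason. Depth limits low genes: Trim30b, Trim46, Trim62, Fbxo10 and Usp54 rest on few reads in their lowest library.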
